A study of Saccharomyces cerevisiae with 6 samples.

Results

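The start of S phase in wild-type budding yeast was described by setting the library collected 30 min after release against the library of the same strain arrested in G1. These were 2 of the 6 libraries of the series, with 1 library per condition. The wild-type 40 min library, with a median of 2438 reads per window, was used only for heights at the peaks called at 30 min. Members were the non-overlapping 1 kb windows of the 16 chromosomes, of which 11575 of 12070 had a usable value. The 30 min cells and the G1 cells were both W303 with the genotype Pol2-3HA::KAN (X7021-4a), that is, wild-type Pol2 with an HA tag, in a background that the methods call a RAD5 variant of W303. Both cultures were grown in YPD at 24 °C and arrested with alpha factor, and the 30 min cells were then released with pronase. The pol2-REL strain carries an altered form of the same gene. Its G1 and 30 min libraries were used only as another divisor and as another measurement of the same positions. The paper reports that cells of this strain entered and passed through S phase more slowly. It also reports less DNA synthesis throughout the genome, more so at late origins, with origin usage and timing unaltered. The pair of libraries from this strain is therefore not a repeat of the wild type.

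Budding yeast starts DNA synthesis at defined origins, where the origin recognition complex loads the MCM helicase during G1. Each origin fires at a characteristic time in S phase, and DNA that has been copied gives more sequencing reads than DNA that has not. Origins near centromeres are known to fire early, and origins near telomeres and at the silenced mating-type loci late. Pol2 is the catalytic subunit of DNA polymerase ε, which copies the leading strand.

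The wild-type 30 min library held 40161464 reads in the windows, a median of 3389 per window, against 30741752 reads and a median of 2472 in wild-type G1. Counting error was thus 1.72% per window at 30 min and 2.01% in G1. Without replicate cultures, errors below are counting errors only and no test between conditions was possible. Relative copy number is the 30 min reads over the G1 reads, set by the authors to a mean of 1 on each chromosome. A value above 1 therefore means more copied than the chromosome's average, and 1 is not the level of uncopied DNA. The values were smoothed here with a Gaussian of 2 kb SD, which left a counting error of 0.00991.

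The wild-type G1 library was itself uneven, and every ratio here rests on it. Median reads per window of a chromosome, relative to the median of all windows, ran over 0.930 to 1.27 at 30 min. The range was 0.869 to 1.76 in wild-type G1, with chromosomes I and VI the deepest, against 0.984 to 1.102 in pol2-REL G1. DNA of cells held in G1 is not yet replicated. Broad differences across a chromosome are therefore given below also with pol2-REL G1 reads as divisor. A scaled value is relative to its own chromosome's mean, so levels on different chromosomes are not on one scale.

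Smoothed relative copy number ranged over 0.761 to 1.471, with 5% of windows below 0.873 and 5% above 1.133. Peaks were maxima that rose above the surrounding valleys (their prominence) by at least 0.0396, which is 4 times the counting error, at least 10 kb apart. This gave 262 peaks. Of these, 142 had a prominence of 0.1 or more and are called strong, and the other 120 are called weak. Windows at 1.1 or more were called high, which held for 9.03% of all windows, and windows at 1/1.1 or less were called low, which held for 13.4%.

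Most strong peaks were rises of about 10 kb in the 30 min library, where the G1 library was close to its flanks. The height of a peak is the mean of its central 3 windows over the mean of the windows 15 to 20 kb away on both sides, minus 1. Strong peaks had a median height of 0.253 (range 0.0186 to 0.520, n = 141), a median smoothed value of 1.145 and a median width at mid-prominence of 11.2 kb (interquartile range 9.71 to 12.7 kb), and 10 of the 142 were wider than 20 kb, up to 240 kb on chromosome XV at 619001. In single libraries, the centre over the flanks was a median of 1.24 at 30 min, against 0.991 in the wild-type and 0.993 in the pol2-REL library from G1. The wild-type G1 ratio was between 1/1.1 and 1.1 at 130 of the 142 and ran over 0.367 to 1.64 in all. The left and right sides were of similar length, with medians of 5.41 and 5.31 kb, and the right side was the longer at 62 of 142 strong peaks. A total of 105 of the 142 reached 1.1, against 13 of 120 weak peaks.

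**Figure D1:**
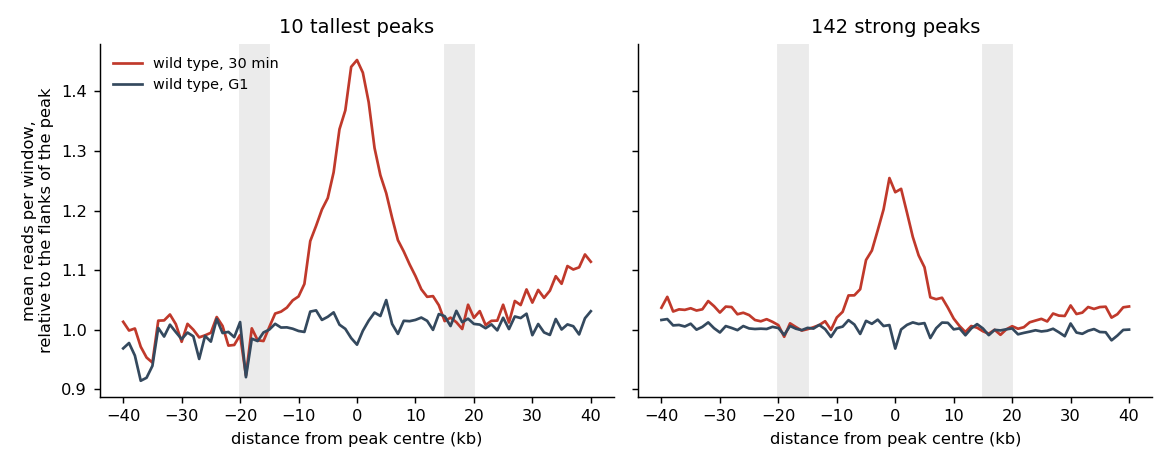
Mean reads per 1 kb window around the 10 tallest peaks (left) and all 142 strong peaks (right), relative to the mean of the windows shaded in grey (15 to 20 kb from the peak centre), in the wild-type 30 min and G1 libraries. The 30 min line reaches 1.45 at the centre of the 10 tallest peaks and 1.23 at the centre of the strong peaks, where the G1 line is at 0.975 and 0.968.

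The strong peaks were chosen in these libraries, so their own heights are a description. A measurement that shares no library with them, pol2-REL at 30 min over pol2-REL G1, had a peak within 3 kb of 123 of the 142 strong peaks (86.6%), against 20 of the 120 weak peaks (16.7%) and 13% of all windows. The height of the same positions in that pair was a median of 0.168 at strong peaks, with 130 of 141 above 0. The median was 0.00354 at weak peaks, against -0.0045 over all windows. That pair differs from wild type in strain and in reported progress through S phase. A lower height or a missing match there is thus not a failed repeat, and its cause was not tested. With pol2-REL G1 as the divisor of the same 30 min library, 139 strong and 49 weak peaks recurred within 3 kb, and the share over all windows was not computed. At weak peaks the centre over flanks was a median of 1.02 at 30 min, 0.975 in G1 of the wild type and 0.994 in pol2-REL G1. In wild-type G1, 88 of the 120 were below 1, against 81 of the 142 strong peaks. Peaks are maxima of 30 min over G1, so a low G1 centre is favoured by the choice itself. The share over all windows was not computed. The limit itself was no natural gap. The peaks just inside it, on chromosome XI at 388001 to 389000 and chromosome VIII at 133001 to 134000, both had a prominence of 0.101. Those just outside, on chromosome XI at 153001 and chromosome XII at 140001, had 0.0988 and 0.0969.

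The 10 tallest peaks lay on 5 chromosomes, all at least 61.2 kb from an end (SacCer2 coordinates throughout). The tallest was on chromosome VII at 888001 to 889000, where the window held 4139 reads at 30 min and 2326 in G1. Its height was 0.520 ± 0.0258 (counting SE). The next was on chromosome IV at 914001 to 915000, with 4126 reads at 30 min and 2043 in G1 and a height of 0.515 ± 0.0265. Close behind was the peak on chromosome XV at 277001 to 278000, with 4122 reads at 30 min and 2322 in G1 and a height of 0.515 ± 0.0258. The heights of the tallest peak and the XV 277001 peak differed by 0.00494 with an SE of 0.0365, so their order was not resolved at this depth.

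Chromosome XII at 374001 to 375000 followed, with 3565 reads at 30 min and 1680 in G1 (height 0.481 ± 0.0273). Another peak of chromosome XV, in the window from 167001, held 4068 reads at 30 min and 2301 in G1 (0.479 ± 0.0250). Both of these chromosomes thus gave more than one of the tallest peaks, as did IV and X. Chromosome X had peaks at 540001 to 541000 (4105 reads at 30 min, 2499 in G1, height 0.432 ± 0.0243), another at 613001 to 614000 (4368 reads at 30 min, 2669 in G1, 0.418 ± 0.0228) and a further one at 684001 to 685000 (4958 reads at 30 min, 3218 in G1, 0.417 ± 0.0210). Chromosome IV had its other peak at 554001 to 555000, with 4423 reads at 30 min and 2275 in G1 (0.426 ± 0.0267). Chromosome XII had its other peak at 231001 to 232000, with 4055 reads at 30 min and 2080 in G1 (0.418 ± 0.0255). The X 684001 peak and the next one in rank, on chromosome IV at 1166001, differed by 0.0022 with an SE of 0.0325, so membership of the list was itself not resolved at its lower end.

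At all 10, the centre held 1.34 to 1.57 times the reads of the flanks at 30 min, against 0.938 to 1.101 times in wild-type G1. Their heights were 0.362 to 0.529 with pol2-REL G1 as the divisor. In the pol2-REL pair each had a peak within 1 kb, with a height of 0.319 to 0.482. At the IV 554001 peak the G1 libraries were also above their flanks, at 1.101 times in wild type and 1.16 times in pol2-REL. Heights at these 10 positions, divided by the same G1 library, were 0.417 to 0.520 at 30 min and 0.175 to 0.370 in wild type at 40 min. The 10 were ranked by their height at 30 min, so a lower value at 40 min is in part fixed by that choice. Over all strong peaks, the median was 0.253 at 30 min and 0.254 at 40 min, and over weak peaks 0.0519 and 0.0806.

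By level relative to its own chromosome's mean, instead of height, the largest value was on chromosome XII at 513001 to 514000. It held 4147 reads at 30 min and 1798 in G1, and its smoothed value was 1.471 ± 0.0160 (1.449 in the authors' smoothed column). Chromosome XII also held peaks at 412001 (1.365 ± 0.0152) and 374001 (1.359 ± 0.0147). On other chromosomes, each against its own mean, IV 914001 was at 1.296 ± 0.0133, X 204001 at 1.292 ± 0.0166 and V 353001 at 1.269 ± 0.0127. The XII 513001 peak stood on raised ground, with flanks at 1.09 and a height of 0.392 ± 0.0260, and that height was 0.337 with pol2-REL G1 and 0.185 in the pol2-REL pair. It lies to the right of the ribosomal DNA array, the tandem repeat of ribosomal RNA genes on chromosome XII. Only 2 windows of that array stood apart by depth, at 459001 to 461000, and they were left out of the peaks. They held 57700 and 156448 reads at 30 min, against 34922 and 97266 in G1, which is 1.27 and 1.23 times the ratio of the genome. On that genome scale chromosome XII as a whole was at 1.11 with wild-type G1 and 0.964 with pol2-REL G1. The unique DNA beside the array was high on both sides, with means of 1.16 over 431001 to 451000 and 1.19 over 489001 to 509000. These means are relative to the chromosome's mean, so they are not on the scale of the array values.

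Neighbouring strong peaks were a median of 59 kb apart (interquartile range 35 to 89 kb, range 13 to 289 kb, 126 gaps). Of these gaps, 21 were under 30 kb and 22 over 100 kb, and each of the 22 held at least 1 weak peak. Long gaps hold a weak peak more readily by length alone, and the share so given was not computed. Counting weak peaks too, the median distance was 39 kb (range 11 to 133 kb, 246 gaps). Most weak peaks had no match within 3 kb in the pol2-REL pair (16.7% did, against 13% of all windows). Since that strain is reported to be slower in S phase, this does not show that they are absent in wild type. The longest gap between strong peaks ran on chromosome XV over 619001 to 908001 (289 kb) and held 7 weak peaks. It was followed by 216 kb on chromosome XVI from 73001 and 194 kb on chromosome IV from 554001, to the right of one of the tallest peaks.

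**Figure D2:**
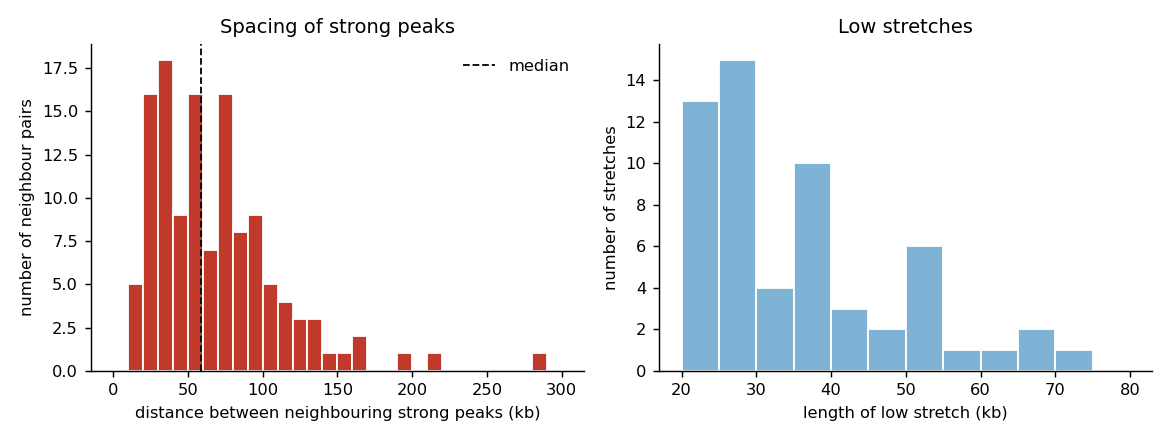
Left, distances in kb between neighbouring strong peaks on a chromosome (126 pairs, 10 kb bins, dashed line at the median of 59 kb). Right, lengths in kb of the 58 low stretches (5 kb bins), which run over 20 to 74 kb.

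Every chromosome had strong peaks, and the highest peak of each of the 16 was a strong one, which the prominence rule itself favours. Chromosome III had the most per length, 6 in 317 kb or 1.90 per 100 kb, and chromosome I the fewest, 2 in 230 kb or 0.869 per 100 kb, with a median of 1.18 over the 16. Relative to its own chromosome's mean, the highest peak was at 1.13 (chromosome VI, at 199001) to 1.47 (chromosome XII), which gives no order among chromosomes. These highest peaks lay 53.7 to 617 kb from the nearer end and 7 to 465 kb from the centromere, with medians of 271 and 139 kb. On chromosome VI the smoothed value was higher still near its left end, at up to 1.15 over 3001 to 19000, but no peak was called there. Chromosome XI had its highest peak closest to a centromere, at 447001, and chromosome IV its highest farthest from one, at 914001. Before scaling, the 30 min over G1 ratio of a chromosome relative to the genome was 0.721 (VI) to 1.11 (XII) with wild-type G1 as the divisor, and 0.962 (XIII) to 1.16 (I) with pol2-REL G1. Chromosome I was at 0.748 with the first divisor, so which chromosomes were most copied cannot be told apart from the unevenness of the G1 library.

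High windows formed 131 runs, of which 29 were at least 10 kb long and 105 held a strong peak. The longest, on chromosome XV over 600001 to 704000, was 104 kb with a mean of 1.13 and only 1 strong peak, followed on the same chromosome by a run of 38 kb over 709001 to 747000. These plateaus had means of 1.07 and 1.07 with pol2-REL G1. After these came a run on chromosome XII over 489001 to 523000, had a mean of 1.25 and held the XII 513001 peak.

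The windows of 9 origins known to fire early all lay within 1 kb of a strong peak, as did ARS1, an origin of intermediate timing, against 3.59% of all windows. On chromosome III, ARS305 held 4501 reads at 30 min and 3895 in G1, with a height of 0.329 ± 0.0191. ARS306 and ARS307 on its left arm and ARS310 on its right had heights of 0.273, 0.263 and 0.263, and ARS315 had 0.194. ARS309, 18 kb to the right of the centromere, had the smallest, 0.104 ± 0.0181. The strong peak nearest to that centromere, 5 kb to its left, was the one at ARS307. On chromosome VI, ARS607 held 4604 reads at 30 min and 3978 in G1, with a height of 0.334 ± 0.0186, ARS606 had 0.315 and ARS605 had 0.170. ARS1 on chromosome IV held 3896 reads at 30 min and 2261 in G1, with a height of 0.212 ± 0.0210. These well-studied origins were not among the tallest: the peaks at their positions ranked 35 to 130 by height.

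Of 3 origins known to fire late, 0 lay within 1 kb of a strong peak, which with 3.59% of all windows so placed says little by itself. ARS603 on chromosome VI held 4100 reads at 30 min and 4231 in G1, with a height of -0.0116 ± 0.0139, and the nearest strong peak was 69 kb away. ARS501 on chromosome V held 4234 reads at 30 min and 3468 in G1, with a height of -0.0031 ± 0.0148 and the nearest strong peak 51 kb away. ARS609, 13.6 kb from the right end of chromosome VI, held 4739 reads at 30 min and 4679 in G1 and had no height because its flank ran past the end. The heights of ARS603 and ARS501 lay within their counting intervals of 0, so a rise was not detectable there at this depth. The silenced mating-type locus HMR, with 3310 reads at 30 min and 3161 in G1, had a height of -0.0027 ± 0.0145 and stood 69 kb from a strong peak. HML held only 676 reads at 30 min and 668 in G1, with a smoothed value of 0.953. The other loci stood above their chromosome's mean, with smoothed values of 1.028 at ARS603, 1.031 at ARS609, 1.018 at ARS501 and 1.075 at HMR.

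**Figure D3:**
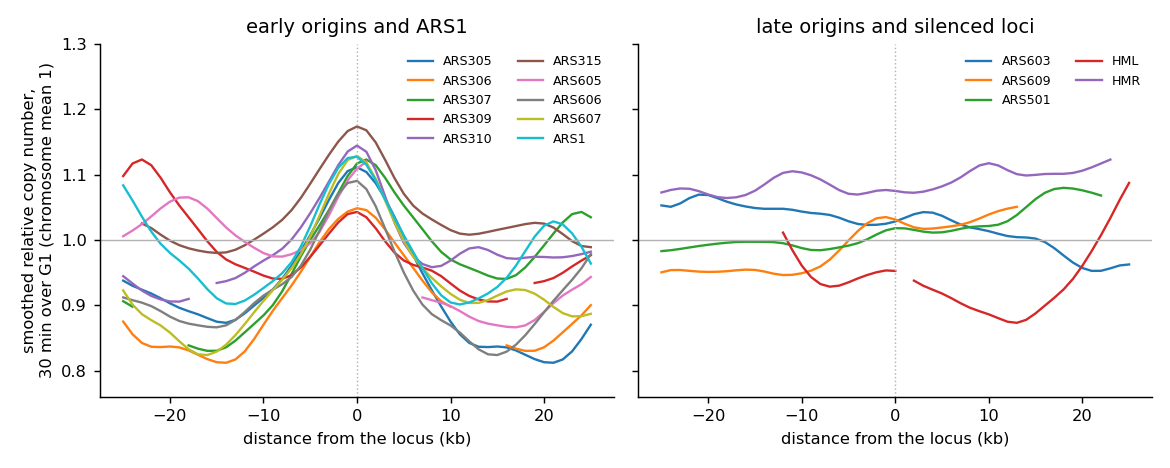
Smoothed relative copy number (30 min over G1, chromosome mean 1) against distance in kb from 9 early origins and ARS1 (left) and from 3 late origins and the silenced loci (right). The lines on the left peak at the origin with 1.04 (ARS309) to 1.17 (ARS315), and those on the right have no strong peak there. Breaks are windows with no value.

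Strong peaks were close to most centromeres. The nearest strong peak lay 1 to 13 kb away (median 7.5 kb), against a median of 24 kb over all windows. It was within 10 kb at 12 of 16 centromeres, against 24.7% of all windows. The centromere's own window had values of 0.853 (CEN14) to 1.156 (CEN2) with a median of 0.988. At 10 of the 16, strong peaks stood within 20 kb on both sides, which held for 4.86% of all windows, and on chromosome VII both were 12 kb away.

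The peaks beside centromeres were of ordinary height. Their median was 0.250 (range 0.0738 to 0.380), against 0.253 for all strong peaks. The tallest was beside CEN15, at 337001 to 338000 on chromosome XV, and the smallest beside CEN1, at 160001 to 161000 on chromosome I. CEN4 lay 13 kb to the left of ARS1. Within 20 kb of a centromere lay 26 of the 142 strong peaks (18.3%), in 5.49% of the windows, and 127 of 635 windows there were high (20%, against 9.03% of all). The mean of the smoothed windows within 10 kb was 1.1 or more at 0 of 16 centromeres and above 1 at 11, running over 0.888 (CEN6) to 1.098 (CEN16). Unsmoothed, CEN16 alone reached 1.1, with 1.104. The number with an unsmoothed mean above 1 was 7 with pol2-REL G1 as the divisor and 8 in the pol2-REL pair.

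Farther out, at 20 to 40 kb from the centromere, the mean copy number was below the chromosome's average on every chromosome, and at or under 1/1.1 on 4. The distance bands were chosen after the profile was seen. The mean over 20 to 40 kb was below 1 on 16 of 16 chromosomes (0.861 on XII to 0.980 on X) and below the mean over 5 to 20 kb on 16 of 16. With pol2-REL G1 these counts were 16 and 16, and in the pol2-REL pair 15 and 14. Low windows were 259 of 620 in this band (41.8%, against 13.4% of all windows), and strong peaks were 7, or 4.93% of them in 5.36% of the windows. The share of low windows was 21.02% at 0 to 5 kb, 16.9% at 5 to 10 kb, 19.7% at 10 to 20 kb and 21.9% at 40 to 80 kb, all above that of all windows.

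**Figure D4:**
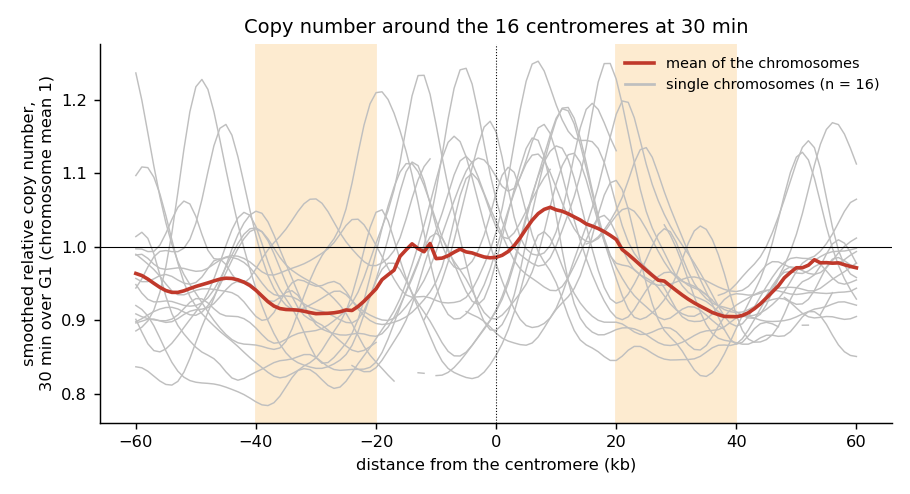
Smoothed relative copy number (30 min over G1, chromosome mean 1) against distance in kb from the centromere, for single chromosomes (grey, n = 16) and their mean (red). Peaks stand on both sides of the centromere at differing distances, and within the shaded bands at 20 to 40 kb the band mean of each chromosome is 0.861 to 0.980.

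Chromosome ends had few strong peaks. The nearest to an end was 25.9 kb in, only 2 lay within 30 kb (1.41% of strong peaks, in 6.47% of the windows), and the distance from an end to its first strong peak was a median of 83.9 kb (25.4 to 284 kb over the 32 ends, counted to the nearer edge of the peak window). The longest was at the right end of chromosome XII and the shortest at the right end of chromosome XIII. Of the 960 windows within 30 kb of an end, 211 had no deposited ratio, so the outermost repeats were largely unseen.

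How low the ends were could not be read from these libraries. Within 30 kb of an end the mean was 0.989 over wild-type G1 but 1.07 over pol2-REL G1, and 1.098 in the pol2-REL pair. Low windows were 79 of 749 (10.5%, against 13.4% of all windows) with wild-type G1 and 7 of 749 (0.935%, against 14.4%) with pol2-REL G1. Depth relative to the library mean was 1.16 at 30 min, 1.24 in G1 of the same strain and 1.07 in pol2-REL G1 within 30 kb, against 0.927, 0.846 and 0.963 over 300 kb from an end. The direction turned likewise at 50 to 100 kb, with 0.963 over wild-type G1 and 1.03 over pol2-REL G1, and over 300 kb from an end, with 1.03 and 0.976. Single ends ran over 0.880 (right end of XV) to 1.117 (left end of VI), and 20 of 32 were below 1 with wild-type G1 but 6 with pol2-REL G1.

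**Figure D5:**
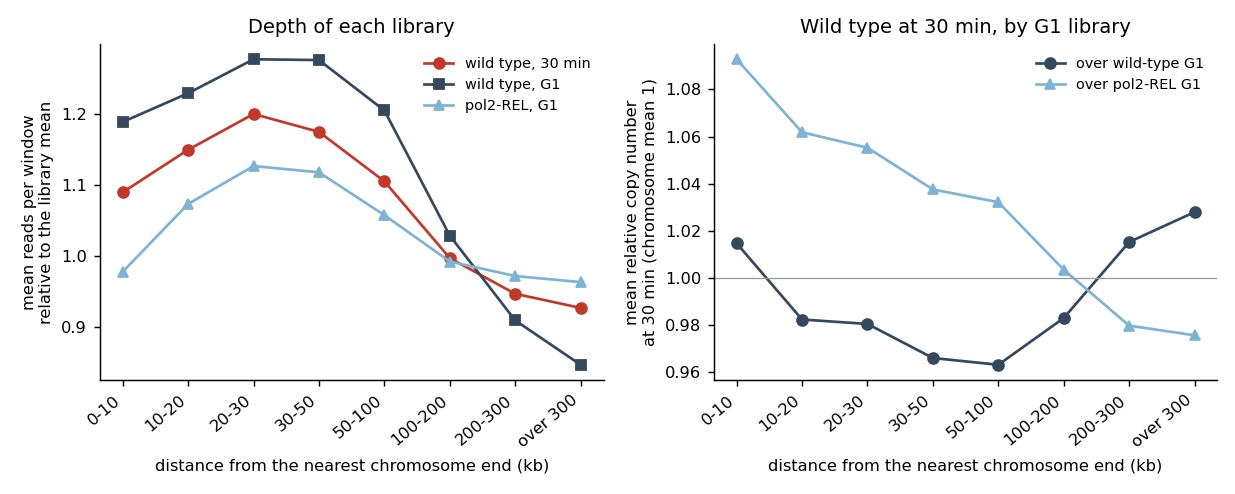
Left, mean reads per window relative to the library mean, by distance in kb from the nearest chromosome end, in wild type at 30 min, wild-type G1 and pol2-REL G1. Right, mean relative copy number of the 30 min library over each G1 library (chromosome mean 1). Over wild-type G1 the mean is 0.963 at 50 to 100 kb and 1.03 over 300 kb from an end, and over pol2-REL G1 it is 1.03 and 0.976.

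Stretches of at least 20 kb with every window under 0.95, and no window without a value inside, were taken as the least copied DNA. There were 58, with 2046 windows (17.7%), and they were 20 to 74 kb long (median 30.5 kb). None held a strong peak, which the limits themselves prevent, since no strong peak was under 0.978. Of the 16 centromeres, 0 lay in a low stretch, against 17.7% of all windows. This count rests in part on the limits, since a strong peak lay within 13 kb of each and a window without a value ended a run. Around CEN8 the smoothed values present were all under 0.95 at -34 to 1 kb from the centromere, but missing windows broke the run. By level centromeres were not spared: 21.02% of windows within 5 kb were low, against 13.4% of all, and CEN14's own window was at 0.853. Within 100 kb of an end lay 41.3% of the windows in low stretches, against 25.4% of all windows. This turned with the divisor: of the windows in the 62 low stretches found with pol2-REL G1, 5.08% lay there. A low stretch came within 50 kb of the centromere on 15 of 16 chromosomes, against 41.3% of all windows.

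The longest was on chromosome XII over 13001 to 87000 (74 kb), with a mean of 0.894 from 250573 reads at 30 min and 190141 in G1. Its mean was 0.958 with pol2-REL G1 and 1.06 in the pol2-REL pair. Chromosome XV followed over 41001 to 109000 (68 kb, mean 0.889, and 0.993 with pol2-REL G1), then chromosome XIII over 823001 to 891000 (68 kb, 0.893 and 0.968) and chromosome XV over 987001 to 1047000 (60 kb, 0.878 and 0.984). In each of these 4, at least 86.8% of the windows lay within 100 kb of an end, where the G1 libraries differed in depth. The next lay far from an end: on chromosome IV over 344001 to 402000 (58 kb) the mean was 0.913 with wild-type G1, 0.880 with pol2-REL G1 and 0.904 in the pol2-REL pair, from 167384 reads at 30 min and 125596 in G1.

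Most low stretches were below 1 with the other divisor too. With pol2-REL G1, 55 of the 58 had a mean below 1, and in the pol2-REL pair 46. Of their windows, 63.9% were under 0.95 with pol2-REL G1, against 28.6% of all windows, and 50.2% in the pol2-REL pair, against 26.7%. The lowest means were on chromosome VII over 844001 to 881000 (0.836, and 0.821 with pol2-REL G1) and chromosome XIV over 567001 to 605000 (0.840 and 0.817). The first of these ends 7 kb short of the tallest peak of the genome, and a stretch over 897001 to 926000 (0.896) begins on its other side.

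A low stretch lay within 10 kb on both sides of 16 of the 142 strong peaks (11.3%), against 0.847% of all windows. Strong peaks and low stretches were called on the same smoothed profile, and a strong peak must rise above its surrounding valleys. The contrast with all windows is therefore in part built into the definitions and cannot show an association. Among the 16 peaks were 5 of the 10 tallest, VII 888001, X 613001, X 684001, XV 167001 and XV 277001. The left part of chromosome XV alternated, with strong peaks at 36001, 113001, 167001, 228001 and 277001 and a low stretch between each pair of neighbours. Past a further low stretch the row went on to a strong peak at 309001. Chromosome XIII alternated likewise, with strong peaks at 31001, 94001, 137001, 184001 and 263001. Heights from 36001 to 277001 on chromosome XV were 0.177 ± 0.0177, 0.256 ± 0.0204, 0.479 ± 0.0250, 0.328 ± 0.0230 and 0.515 ± 0.0258. Since a height is measured against the flanks, a peak between low stretches is tall in part by its flanks, which were at 0.846 for the VII 888001 peak and 0.847 for XV 277001, against 0.900 for IV 914001.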

How the data were processed

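Whole-genome DNA reads were measured in 1 library per condition (50-bp paired-end, KAPA libraries from CsCl-purified DNA). The submitters' processing notes name cutadapt, BWA 0.7.8, Picard 1.110 and the build sacCer2. For duplicates and read mates, the counting rule is not stated in those notes. The authors deposited read counts per 1 kb window every 500 bp, and a table with the ratio of S-phase over G1 counts, that ratio adjusted, and a smoothed ratio. The deposited ratio equalled the count ratio within 0.0005, and the adjusted ratio had a mean of 1 on each chromosome within 2.2e-05. The methods describe an adjustment for DNA content, which those means do not show. In 493 windows there is no deposited ratio, and the lowest count with one was 602 reads.

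Non-overlapping windows were analysed with Python 3.11.15 (SciPy 1.17.1 for the peaks, pandas 2.3.3 and numpy 2.4.6 for the tables, matplotlib 3.10.9), and the calling was tested on simulated data. Counting errors were propagated from Poisson counts, which cover counting error only. Heights were compared through 95% intervals. Peaks under 20 kb from an end, or with no window in one flank, were given no height. Windows with G1 reads over 5 times the genome-wide median, which lay in the ribosomal DNA array, were left out. The positions of centromeres, origins and silenced loci were entered to the nearest kb from general knowledge. In the RefSeq gene table, whose build differs, 16 of 16 centromeres fell between genes of the left and right arms within 1 kb. Named regions were the 10 tallest strong peaks, the highest peak per chromosome, the 16 centromeres, the listed loci, the 5 longest low stretches and the sides of the ribosomal DNA. Other named regions were chosen after their values were seen. The members and lists were chosen with earlier results of these data known. Alternatives covered the divisor, smoothing, window phase, read minimum, trend, scaling and each threshold.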

Additional observations from a re-analysis of the deposited data

How the results depend on the processing

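Of 68 alternatives to the counts and the spacing, 54 stayed within 1.5 times the reported value. Peaks were 162 in place of 262 at a prominence of 8 times the counting error. Centromeres with a mean of 1.1 or more were 1 in place of 0 with a Gaussian of 1 kb SD, with windows offset by 500 bp, with a minimum of 1 read and within 5 kb, 3 after division by a broad running median along the chromosome, and 2 with a genome-wide mean of 1. Low windows near ends were 7 with pol2-REL G1, 3 after the running median, 261 with a genome-wide mean of 1, 32 within 20 kb and 225 within 50 kb, in place of 79 within 30 kb. Low stretches held 374 windows after the running median and 873 at a limit of 1/1.1, in place of 2046. The cause was not tested. The 99 alternative heights of the 10 tallest peaks were all above 0 (0.244 to 0.532), and 72 lay within the counting interval of the reported value. No paired analysis was possible because each condition had 1 library. Spread between cultures, and hence any difference between the 30 min and G1 cultures beyond counting error, is unknown. Windows without a ratio leave the outermost ends and repeats unseen.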
